A study of Mus musculus with 10 samples.

Results

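Tenascins, lecticans and link proteins form much of the matrix around brain cells. Their 10 genes (Tnc, Tnr, Acan, Bcan, Ncan, Vcan and Hapln1 to Hapln4) were followed in the mouse dentate gyrus. Each was taken from the array probe set that names it alone in the platform annotation, and each had 1 such probe set. They are 10 of 19752 genes measured. Total RNA came from the dentate gyri, the hippocampal region in which granule neurons are still born after birth, in mice given no treatment; their strain is labelled C56BL/6J. The ages were 4, 6, 8, 10 and 12 weeks, with 2 whole-transcript Affymetrix arrays at each, 10 arrays in all. Nothing in the labels ties the 2 arrays of an age to separate animals, so the p-values rest on a spread between arrays that may be technical.

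The matrix of the brain has few collagen fibres and is built on hyaluronan. Lecticans are chondroitin sulfate proteoglycans that bind hyaluronan at one end, link proteins lock that bond, and tenascins cross-link lecticans at the other end. In the mature brain these molecules condense into perineuronal nets around certain neurons and into coats at nodes of Ranvier, while tenascin C and versican are known from growing tissue and stem cell niches.

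Levels are the deposited log2 values, so 1 unit is a 2-fold difference. They compare arrays for 1 gene. Between genes, levels serve here only as a rough guide to bright or dim signal. Granule cell genes marked the tissue, with Prox1 between 12.15 and 12.38 and Calb1 between 12.44 and 12.73 on all arrays. Correlations between arrays across genes ran from 0.994 to 0.998. The array of 6 weeks replicate 1 stood apart in Ttr, a choroid plexus gene (13.77, against 8.87 to 10.15 on the others), and that of 8 weeks replicate 1 had the narrowest distribution (SD 2.12, next 2.16). As a mark of dim signal, the 95th percentile of 1203 olfactory, vomeronasal and trace amine receptor genes averaged 7.01. The labels give the sex as female; Xist lay under this mark on all arrays (5.41 to 6.02), and Uty, Kdm5d and Eif2s3y, genes of the Y chromosome, had means above it (9.23, 9.06 and 8.97). These levels are at odds with a female label. Probe sets differ in their own brightness, and the sex was not tested further. All 10 matrix genes had means above the mark of dim signal, from 7.25 for Hapln3 to 12.14 for Ncan.

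The 4 link protein genes each neighbour a lectican gene. In mm10 coordinates (GRCm38.p6), Hapln1 and Vcan lie on chromosome 13 at 89540529 to 89611832 and 89655309 to 89743027, Hapln2 and Bcan on chromosome 3 at 88020558 to 88027511 and 87987531 to 88002175. Hapln3 and Acan lie on chromosome 7 at 79117027 to 79133173 and 79053226 to 79115099, and Hapln4 and Ncan on chromosome 8 at 70083529 to 70090862 and 70093085 to 70120863. The gaps between the genes are 43476 bases for Hapln1 and Vcan, 18382 for Hapln2 and Bcan, 1927 for Hapln3 and Acan and 2222 for Hapln4 and Ncan, and 0 protein-coding genes lie in any of them. The tenascin genes are unlinked, Tnc on chromosome 4 at 63959785 to 64047015 and Tnr on chromosome 1 at 159523729 to 159931729. All are protein-coding.

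RefSeq's table gives a window of 250 bases before a transcript start. It is shown for the 2 genes that fell, Tnc and Hapln1, and for Tnr, whose trend differed from that of its paralogue Tnc, as far as the window lies before the gene's annotated span (250 bases for Tnc, 210 for Tnr and 143 for Hapln1). The sequences are of build GRCm38.p6, 5′ to 3′ on the gene's strand. Capitals mark, on either strand, E-boxes (CANNTG, the letters bound by basic helix-loop-helix factors), GC boxes (GGGCGG) and TATA boxes (TATAAA).
Tnc, chr4:64047016-64047265, minus strand: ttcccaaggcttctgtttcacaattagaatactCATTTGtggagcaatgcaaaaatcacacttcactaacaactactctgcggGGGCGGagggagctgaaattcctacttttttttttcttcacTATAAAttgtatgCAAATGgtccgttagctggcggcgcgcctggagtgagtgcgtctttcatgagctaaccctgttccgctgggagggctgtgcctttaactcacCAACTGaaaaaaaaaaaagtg
Tnr, chr1:159523519-159523728, plus strand: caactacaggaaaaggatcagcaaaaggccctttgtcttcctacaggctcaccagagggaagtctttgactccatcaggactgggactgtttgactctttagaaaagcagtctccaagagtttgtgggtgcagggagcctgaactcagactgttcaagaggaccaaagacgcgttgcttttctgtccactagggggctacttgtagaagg
Hapln1, chr13:89540386-89540528, plus strand: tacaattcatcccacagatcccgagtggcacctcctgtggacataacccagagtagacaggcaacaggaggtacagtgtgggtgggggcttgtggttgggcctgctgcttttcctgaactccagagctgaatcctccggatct

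In full, the Tnc window holds 3 E-boxes, 1 GC box and 1 TATA box, and its paralogue Tnr has 0 of each. The Hapln1 window has 0 of each, and that of its neighbour Vcan, which lies wholly inside the annotated gene, has 1 E-box and 2 GC boxes. No 2 of these motifs share bases in the Tnc window. Of all 32851 windows of this length in the table, 66.2% hold an E-box, 32.7% a GC box and 12.4% a TATA box. CpG pairs number 8 in the window of Tnc, 2 in that of Tnr, 2 in that of Hapln1 and 10 in that of Vcan, against a median of 6. The table gives 2 starts for Tnc, and the window of the start farthest upstream was used. The windows of Bcan and Hapln3 also lie inside the gene span, and that of Ncan overlaps it by 19 bases. The other windows hold 26 CpG pairs for Acan, 16 for Bcan, 8 for Hapln3, 6 for Ncan and 2 for Hapln2. The table matched 9 of the 10 genes, all but Hapln4. These letter matches are a description and were not tied to the age changes.

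Over the 8 weeks, 2 of the 10 genes changed in the test over all genes, the tenascin gene Tnc and the link protein gene Hapln1, and both fell. The test was limma's coefficient of age with Benjamini-Hochberg adjustment, given as the log2 change over the series. In it 0.673% of all genes fell and 0.82% passed in either direction. The other 8 genes did not pass, but 5 of them (Tnr and the 4 lecticans) had negative changes with an unadjusted p under 0.05, so that 7 of the 10 genes lay there, against 7.28% of all genes. Hapln4 had a positive change with an unadjusted p under 0.05. Changes were negative for 8 of the 10 genes, against 48.8% of all genes, and 8 of 10 had an unadjusted p under 0.05 in either direction, against 11.7%. The median change was −0.22 over the 10 genes and 0.00 over all genes.

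**Figure D1:**
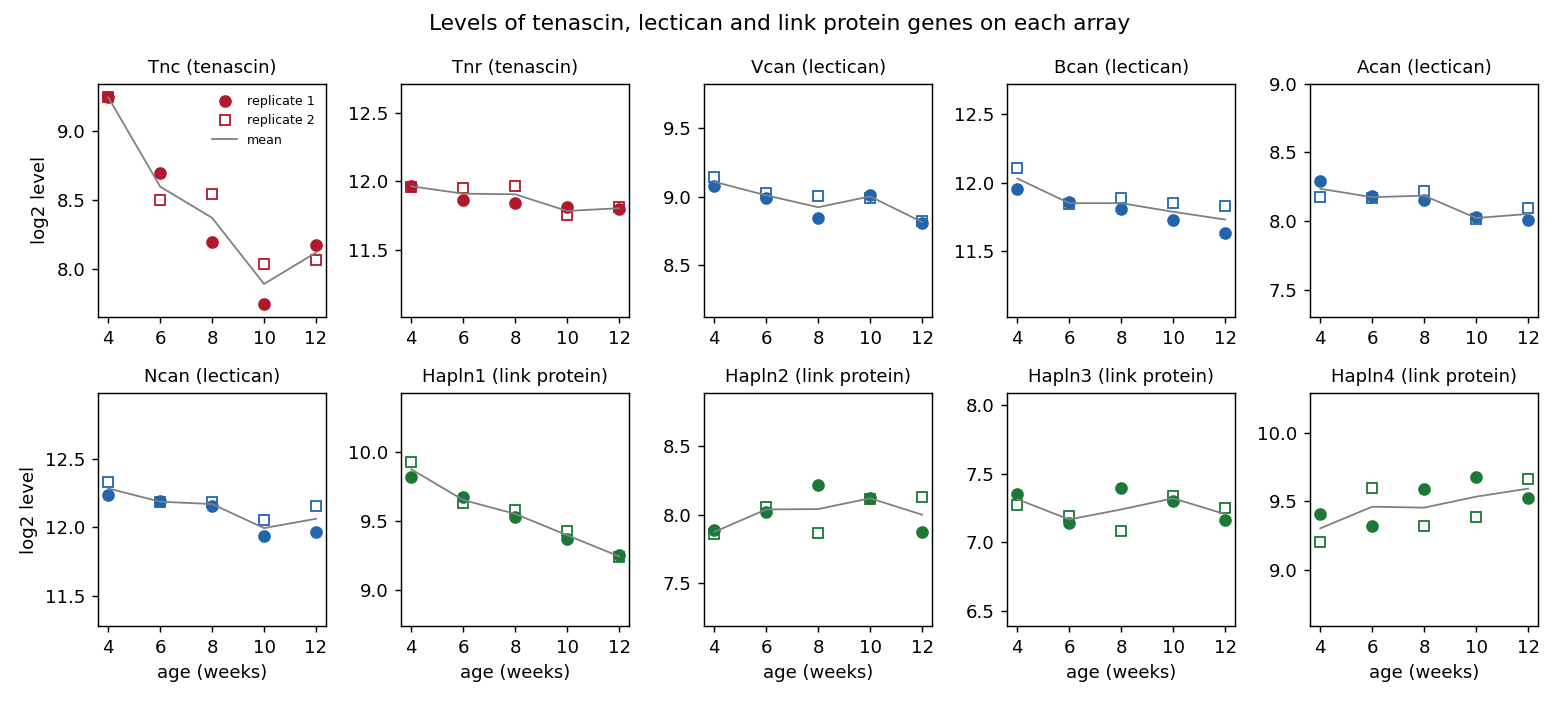
Level of each gene (vertical axis, log2) against age in weeks, with 1 point per array. Points are filled for replicate 1 and open for replicate 2, and a grey line runs through the age means. All panels cover the same number of log2 units, but each is centred on its own gene's levels. Tnc and Hapln1 descend, the 4 lecticans slope slightly down, and Hapln2, Hapln3 and Hapln4 do not.

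Tnc encodes tenascin C, a glycoprotein of the developing brain that astrocytes and neural stem cells secrete. Its level was 9.25 and 9.25 at 4 weeks, 8.70 and 8.50 at 6 weeks, 8.20 and 8.54 at 8 weeks, 7.75 and 8.03 at 10 weeks, and 8.17 and 8.07 at 12 weeks. The 4-week arrays lay above all others, and the lowest age was 10 weeks, not 12. In order of level the ages ran 4, 6, 8, 12 and 10 weeks; 6 and 8 weeks overlapped, and the other neighbours did not. Its fitted change was −1.19 ± 0.20 (SE), or 2.28-fold lower (adjusted p = 0.016). The mean of 6 weeks differed from that of 4 weeks by −0.65, and that of 12 weeks differed from 4 weeks by −1.13 ± 0.13 (SE, adjusted p = 0.0097). The call rests on the 4-week arrays: without replicate 1 the change was −1.07 (adjusted p = 0.11) and without replicate 2 also −1.07 (adjusted p = 0.094). Without the 2 arrays that stood apart it was −1.21 (adjusted p = 0.021). In whole tissue, fewer cells of a type and less RNA per cell cannot be told apart.

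Tnr encodes tenascin R, a tenascin of the nervous system that clusters lecticans in perineuronal nets. It ran at 11.97 and 11.96 at 4 weeks, 11.87 and 11.96 at 6 weeks, 11.84 and 11.97 at 8 weeks, 11.82 and 11.75 at 10 weeks and 11.80 and 11.81 at 12 weeks. Both 12-week arrays lay below both 4-week arrays, as they did for 22.2% of all genes, while 6 and 8 weeks overlapped each other, as did 10 and 12 weeks. The change of −0.18 ± 0.06 (SE; 95% interval −0.31 to −0.05) did not pass (adjusted p = 0.22). The tenascin trends were unequal: Tnc minus Tnr changed by −1.01 ± 0.22 (SE; 95% interval −1.52 to −0.50), with an exact two-sided permutation p of 0.0017 over 113400 arrangements of the ages and 0.0057 adjusted over the 17 pairs compared. The per-array difference cancels what scales both genes alike.

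Hapln1 encodes the cartilage link protein, which in mouse brain is needed for normal perineuronal nets. Its level was 9.82 and 9.93 at 4 weeks, 9.67 and 9.64 at 6 weeks, 9.53 and 9.58 at 8 weeks, 9.37 and 9.43 at 10 weeks, and 9.25 and 9.24 at 12 weeks. No neighbouring ages overlapped: both arrays of each age lay below both of the age before, an order that 19 of 19752 genes had (0.0962%). It was the 1 gene of the 10 whose age means declined at every step, as those of 2.23% of all genes did. The change was −0.61 ± 0.06 (SE), or 1.53-fold lower (adjusted p = 0.00035), the 7th smallest p of all genes. Leaving out any 1 array moved it only between −0.62 and −0.56, and the call held in each of those fits. Its difference at 12 against 4 weeks was −0.63 ± 0.07 (SE, adjusted p = 0.0058).

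The other link protein genes had no such course. Hapln2, the link protein of nodes of Ranvier in myelinated fibres, had 7.89 and 7.86 at 4 weeks, 8.02 and 8.05 at 6 weeks, 8.21 and 7.87 at 8 weeks, 8.12 and 8.12 at 10 weeks, and 7.87 and 8.12 at 12 weeks. The 4-week arrays were low, and 12 weeks overlapped them; the change was 0.13 ± 0.11 (SE; 95% interval −0.10 to 0.36; adjusted p = 0.70). It rested on single arrays, since it was 0.08 when 4 weeks replicate 2 was left out, 0.25 when 12 weeks replicate 1 was, and 0.29 for both 12-week arrays together. Hapln3, a link protein found also outside the brain, was the dimmest of the 10. It stayed between 7.08 and 7.40, with both extremes at 8 weeks, and its change was −0.02 ± 0.09 (SE; 95% interval −0.22 to 0.17; adjusted p = 0.96).

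Hapln4 encodes a brain link protein known from nets and inhibitory synapses. Its level was 9.41 and 9.20 at 4 weeks, 9.32 and 9.60 at 6 weeks, 9.59 and 9.32 at 8 weeks, 9.68 and 9.39 at 10 weeks, and 9.52 and 9.66 at 12 weeks. Both 12-week arrays lay above both 4-week arrays, as for 21.6% of all genes, and every pair of neighbouring ages overlapped. Its replicates differed most among the 10 genes (pooled SD within ages 0.17, against 0.04 for Hapln1). The change of 0.26 ± 0.11 (SE; 95% interval 0.02 to 0.51) did not pass (adjusted p = 0.39).

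Hapln1 parted from each of its paralogues. Its change was lower than that of Hapln4 by 0.87 ± 0.16 (coded Hapln1 minus Hapln4, −0.87; 95% interval −1.24 to −0.50; adjusted p = 0.0049, exact permutation). Hapln1 minus Hapln2 changed by −0.74 ± 0.14 (SE; adjusted p = 0.0049, exact permutation), and Hapln1 minus Hapln3 by −0.58 ± 0.11 (SE; adjusted p = 0.0052, exact permutation). Hapln3 averaged 7.25, close to the dim mark of 7.01, so a fall in it could be hard to see. Among the other 3 link proteins no pair passed on all arrays. The intervals reached from −0.07 to 0.39 for Hapln2 minus Hapln3, from −0.38 to 0.14 for Hapln2 minus Hapln4 and from −0.57 to 0.01 for Hapln3 minus Hapln4. By exact permutation Hapln3 minus Hapln4 passed when 6 weeks replicate 2 was left out (−0.35, adjusted p = 0.032), and likewise for 10 weeks replicate 2 (−0.34, 0.040).

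**Figure D2:**
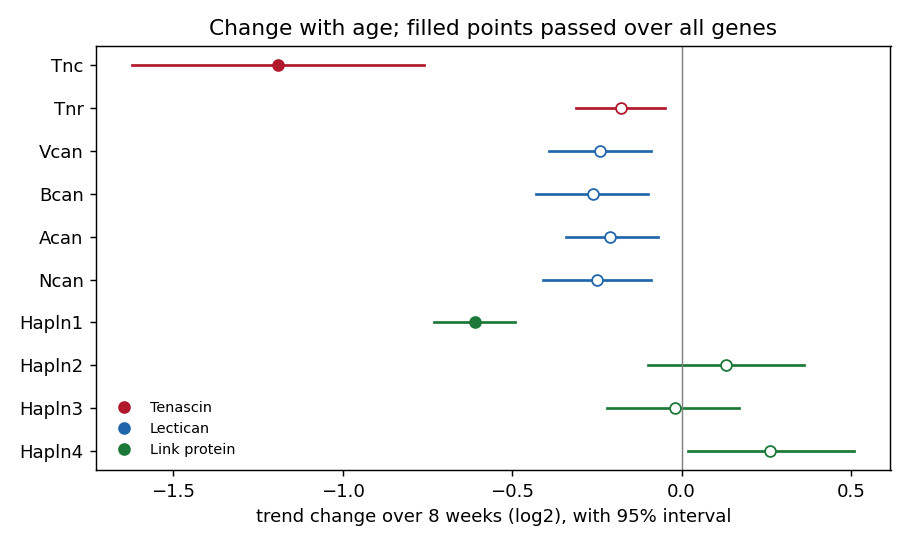
Fitted log2 change over 8 weeks (horizontal axis) for each gene, with its 95% interval as a line, in red for tenascins, blue for lecticans and green for link proteins. Filled points, Tnc at −1.19 and Hapln1 at −0.61, passed over all genes; the lecticans sit together between −0.26 and −0.21, and Hapln2 to Hapln4 between −0.02 and 0.26.

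The 4 lecticans had small negative changes of like size, and none passed over all genes. Bcan encodes brevican, a brain lectican of astrocytes and oligodendrocyte precursors. Its level was 11.95 and 12.11 at 4 weeks, 11.86 and 11.84 at 6 weeks, 11.81 and 11.89 at 8 weeks, 11.72 and 11.85 at 10 weeks, and 11.63 and 11.83 at 12 weeks. The 4-week arrays were the highest and the later ages overlapped; the change was −0.26 ± 0.08 (SE; 95% interval −0.43 to −0.10; adjusted p = 0.17), or 1.20-fold lower.

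Ncan encodes neurocan, a lectican of neurons and astrocytes. It had 12.24 and 12.33 at 4 weeks, 12.19 and 12.18 at 6 weeks, 12.16 and 12.18 at 8 weeks, 11.93 and 12.06 at 10 weeks, and 11.97 and 12.16 at 12 weeks. The 4-week arrays were again highest, 10 weeks had the lowest mean, and 10 and 12 weeks overlapped. The change was −0.25 ± 0.07 (SE; 95% interval −0.41 to −0.09; adjusted p = 0.17), or 1.19-fold lower. With trended and robust variances Bcan and Ncan passed, at adjusted p = 0.043 and 0.039.

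Vcan encodes versican, a lectican of growing tissue and, in brain, of oligodendrocyte precursors. Its level was 9.08 and 9.14 at 4 weeks, 8.99 and 9.03 at 6 weeks, 8.84 and 9.00 at 8 weeks, 9.01 and 8.99 at 10 weeks, and 8.81 and 8.83 at 12 weeks. Here 12 weeks lay below every other array and 4 weeks above. The change was −0.24 ± 0.07 (SE; 95% interval −0.39 to −0.09; adjusted p = 0.17), or 1.18-fold lower.

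Acan encodes aggrecan, the core lectican of perineuronal nets. It had 8.30 and 8.18 at 4 weeks, 8.18 and 8.17 at 6 weeks, 8.15 and 8.22 at 8 weeks, 8.03 and 8.02 at 10 weeks, and 8.01 and 8.10 at 12 weeks. The first 3 ages overlapped, and every array of 10 and 12 weeks lay below all of them. The change was −0.21 ± 0.06 (SE; 95% interval −0.34 to −0.07; adjusted p = 0.18), or 1.15-fold lower.

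No 2 lecticans were shown to differ in trend. The 6 differences ran from −0.06 (Bcan minus Acan) to 0.05 (Acan minus Ncan), and their exact permutation p-values, adjusted over the 17 pairs, from 0.71 to 0.89. The narrowest interval was that of Bcan minus Ncan, −0.14 to 0.12, and the widest that of Vcan minus Ncan, −0.24 to 0.27. A difference between lecticans as large as that between Hapln1 and Hapln2 lay outside all 6 intervals. Of the 10 genes, 4 (Tnc, Tnr, Acan and Ncan) had their lowest mean at 10 weeks, as did 20.8% of all genes.

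**Figure D3:**
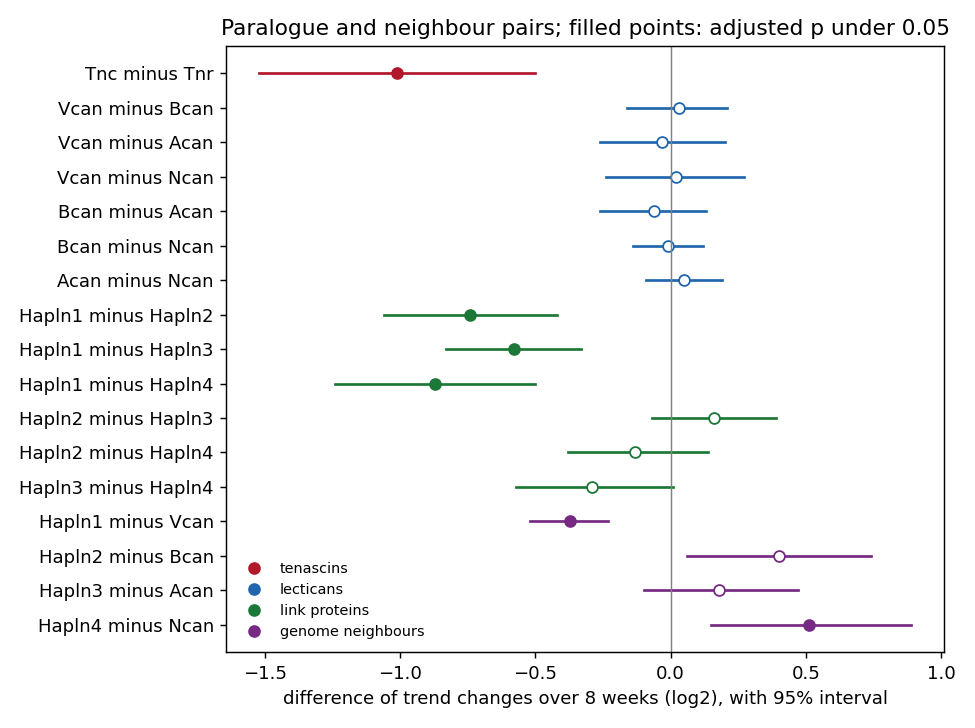
Difference of the fitted changes over 8 weeks (horizontal axis, log2, first gene minus second) for the 17 pairs, with 95% intervals from inverting the exact permutation test. Filled points passed after adjustment: Tnc minus Tnr, Hapln1 against each other link protein, Hapln1 minus Vcan and Hapln4 minus Ncan; all 6 lectican intervals include 0.

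Genes side by side in the genome did not share their course in every pair. Hapln1 changed more than its neighbour Vcan, with a difference of −0.37 ± 0.06 (SE; 95% interval −0.52 to −0.23; adjusted p = 0.0049, exact permutation). Hapln4 minus Ncan changed by 0.51 ± 0.16 (SE; 95% interval 0.15 to 0.89; adjusted p = 0.036, exact permutation). That call depends on single arrays: it missed the threshold without either 4-week array (adjusted p = 0.056 and 0.15), without 6 weeks replicate 1 (0.067), without either 12-week array (0.071 and 0.061) and without the 2 arrays that stood apart (0.089), all by exact permutation, while the difference stayed between 0.40 and 0.57.

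Hapln2 minus Bcan changed by 0.40 ± 0.14 (SE; 95% interval 0.06 to 0.74; exact permutation p = 0.025, 0.062 adjusted) and did not pass. Hapln3 minus Acan changed by 0.18 ± 0.12 (SE; 95% interval −0.10 to 0.47; adjusted p = 0.29, exact permutation). In all, 6 of the 17 pairs passed. They were 1 of 1 tenascin pair, 3 of 6 link protein pairs, 0 of 6 lectican pairs and 2 of 4 neighbour pairs. The 3 link protein pairs and Hapln1 minus Vcan all hold Hapln1, so these calls are not independent. The share that would pass among all gene pairs was not computed.

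**Figure D4:**
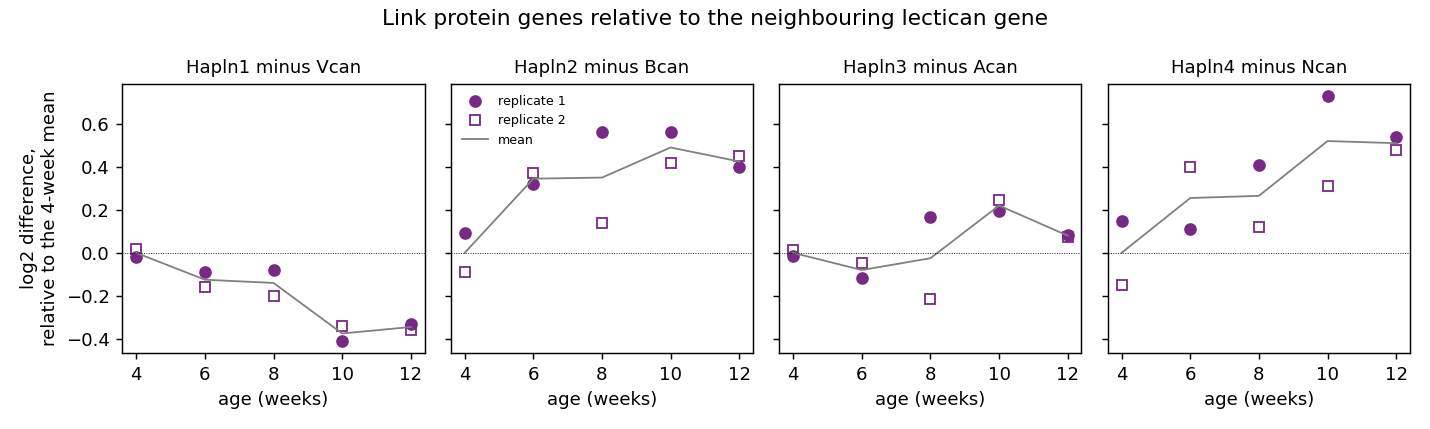
Log2 level of each link protein gene minus that of its lectican neighbour on the same array (vertical axis), set to 0 at the 4-week mean, against age in weeks; points are arrays and grey lines age means. Hapln1 minus Vcan lies lower at 12 weeks than at 4 weeks, Hapln2 minus Bcan and Hapln4 minus Ncan lie higher, and Hapln3 minus Acan has its replicates farthest apart at 8 weeks.

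At 12 against 4 weeks, with age as a factor in limma, the same 2 genes passed, Tnc and Hapln1, against 0.516% of all genes. Among the others the differences ran from −0.30 ± 0.09 for Bcan (adjusted p = 0.28) to 0.29 ± 0.14 for Hapln4 (SE, adjusted p = 0.58). The call of Tnc was lost without any 1 of the 4 end arrays (differences −1.18 to −1.08, adjusted p 0.092 to 0.13). That of Hapln1 was lost without 4 weeks replicate 2 (−0.58, adjusted p = 0.088), 12 weeks replicate 1 (−0.64, 0.067) or 12 weeks replicate 2 (−0.63, 0.070), and held without 4 weeks replicate 1 (−0.69, 0.049). The F-test for any difference between ages called Tnc (adjusted p = 0.028) and Hapln1 (adjusted p = 0.042), against 0.167% of all genes, and 4 of the 10 had an unadjusted p under 0.05, against 8.46%. Between 0 and 2 of the 10 genes passed it when 1 array was left out, and 0 passed when the replicate number was added to the fit.

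The genes most like Tnc over the 10 arrays, by Pearson's r among 13810 genes above the dim mark, were Mex3a, which encodes an RNA-binding protein (r = 0.973), Sema6a, a transmembrane semaphorin gene (0.971), and Sfrp1, a secreted Wnt modulator gene (0.971). Their changes were −0.66, −0.54 and −1.01. Most like Hapln1 were Sema3c, a secreted guidance cue gene (r = 0.984), Dpysl5, a gene of growing neurites (0.983), and Sox4, a transcription factor gene of differentiating neurons (0.981), with changes of −1.21, −0.91 and −0.74 that all passed. These correlations describe 10 arrays that share 5 ages. The genes were picked for likeness to a gene that changed with age, so their own changes are no separate evidence.

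Among the enzymes that make the sugar chains of lecticans no gene passed. Of 22 genes of chondroitin sulfate assembly and sulfation 0 passed, with a median change of 0.01 and a range from −0.18 to 0.25. An unadjusted p under 0.05 was found for 3 of the 22, against 11.7% of all genes. The chain-building genes Chsy1, Chsy3 and Chpf had changes of −0.03 ± 0.06, 0.08 ± 0.10 and 0.04 ± 0.06. Of 9 measured genes of hyaluronan synthesis, turnover and receptors 1 fell, Hmmr, a hyaluronan-binding protein of the mitotic spindle (−0.39 ± 0.07, adjusted p = 0.032), which is dim at 5.03. The hyaluronan synthase genes Has1, Has2 and Has3 were dim as well, at 6.94, 6.43 and 6.88, and had changes of 0.07, −0.23 and −0.22.

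Of 7 genes of lectican-cleaving proteases 1 fell, Adamts4, an aggrecanase (−0.50 ± 0.09, adjusted p = 0.021). Adamts1 (−0.10 ± 0.18) and Adamts5 (−0.04 ± 0.07, dim) did not pass. Among 16 receptors and partners of tenascins and proteoglycans 0 passed (median 0.01, range from −0.33 to 0.28). An unadjusted p under 0.05 was found for 6 of the 16, against 11.7% of all genes, with changes in both directions. Ptprz1, a receptor phosphatase that is itself a proteoglycan, had −0.16 ± 0.08. Its partner Cntn1 had 0.01 ± 0.05 and the chondroitin sulfate receptor Ptprs −0.12 ± 0.05. Of 7 other proteoglycan and tenascin genes 0 passed (median −0.13), with −0.14 ± 0.07 for Cspg4 and −0.13 ± 0.06 for Cspg5. Of 8 genes listed for neurons that bear nets 0 passed (median −0.08, range from −0.37 to 0.20). Otx2 among them is also on the choroid plexus list below. The interneuron gene Pvalb had −0.10 ± 0.07, Kcnc1 0.08 ± 0.06 and Kcnc2 −0.07 ± 0.09. In the other matrix lists, an unadjusted p under 0.05 was found for 3 of 9 hyaluronan genes and 2 of 7 proteases. It was found for 1 of 7 other proteoglycan and tenascin genes and 3 of 8 net neuron genes, the latter with changes in both directions. The share over all genes was 11.7%, as above.

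Markers of several cell types moved over the same ages. Of 9 measured radial glia-like genes 2 fell, Nes (−0.52) and Lpar1 (−0.49). The mean log2 level of the list on each array lay between 10.04 and 10.05 at 4 weeks and 10.06 and 10.09 at 6 weeks. It lay between 9.97 and 10.01 at 8 weeks, 9.72 and 9.84 at 10 weeks, and 9.89 and 9.93 at 12 weeks. The list was lowest at 10 weeks, as were Tnc and 20.8% of all genes. Means of the hyaluronan, lectican-cleaving protease, other proteoglycan and tenascin, and microglia lists were lowest at 10 weeks as well. From 4 to 6 weeks the radial glia-like list did not fall, while Tnc changed by −0.65. Of 10 immature neuron genes 6 fell (median −0.83), and the list mean lay between 10.29 and 10.37 at 4 weeks, 9.86 and 9.95 at 6 weeks, 9.60 and 9.80 at 8 weeks, 9.52 and 9.52 at 10 weeks, and 9.45 and 9.45 at 12 weeks. Of 10 genes listed for oligodendrocyte precursors 6 fell (median −0.32). They were Enpp6 (−1.18), Gpr17 (−0.77) and Bcas1 (−0.40), known from newly forming oligodendrocytes, the lineage transcription factor genes Olig2 (−0.50) and Olig1 (−0.32), and C1ql1 (−0.32). The surface markers of dividing precursors Pdgfra (−0.16) and Cspg4 (−0.14) did not pass. The list means lay between 9.28 and 9.31 at 4 weeks, 9.17 and 9.21 at 6 weeks, 9.06 and 9.10 at 8 weeks, 8.98 and 9.00 at 10 weeks, and 8.90 and 8.95 at 12 weeks. Of 9 measured myelin genes 6 fell (median −0.56, all 9 negative), with array means between 10.49 and 10.52 at 4 weeks, 10.36 and 10.44 at 6 weeks, 10.11 and 10.16 at 8 weeks, 10.02 and 10.08 at 10 weeks, and 10.01 and 10.04 at 12 weeks. The mean levels of these last 3 lists declined at every age, as Hapln1 did. The part of these cells in the falls of Tnc and Hapln1 was not tested.

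Beside the myelin genes, the nodal link protein gene Hapln2 had a change of 0.13. Among 10 astrocyte genes, from cells known to make brevican and neurocan, 0 passed (median −0.07, array means from 11.27 to 11.40 over all ages). Mature granule cell genes had 1 fall and 1 rise among 10 (median 0.05). The lists of choroid plexus (9 genes, median −0.35), meningeal and vascular cells (12 genes, −0.03), microglia (7 genes, 0.00) and pyramidal cells (10 genes, −0.05) had 0 genes that passed. The choroid plexus list stood at 9.12 on the array of 6 weeks replicate 1 and between 7.57 and 7.78 on the rest. On that array Vcan, Bcan, Acan, Ncan, Tnr and Hapln1 lay within 0.10 of the other 6-week array; Tnc lay at 8.70, against 8.50 on the other, and Hapln4 at 9.32, against 9.60.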

How the data were processed

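Total RNA of dentate gyri was labelled with biotin and hybridised to whole-transcript arrays, per the labels' protocols. The authors deposited 1 table of 25254 probe sets by 10 arrays, taken here as log2 values since they run from 2.50 to 15.04 with array medians of 8.27 to 8.31; the log base and how the arrays were background-corrected, summarized and normalized are not given in the sources used here. The genome build was mm10, per the submitters' processing notes. Platform annotation gave 1 gene for 21496 probe sets, several for 1565 and none for 2193; only the first were used, for 938 genes the probe set of highest mean. Symbols and coordinates come from a RefSeq table of GRCm38.p6.

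Age, 12 against 4 weeks and any difference between ages were fitted with limma 3.58.1 (R 4.3.3) over 19752 genes, two-sided, Benjamini-Hochberg, threshold 0.05, and tested on simulated data. Pairs used an exact permutation of ages over arrays (numpy 2.4.6), with 95% intervals by inversion. In matrix lists the genes given with a change are, by rule, the first 3 and those that passed. The 3 genes most like a gene that passed are also named by rule. In cell lists only genes that a result turns on are named, which is a choice. The genes, pairs and lists were chosen with earlier results of these data known. Alternatives were a replicate block, normalization, centring, a dim filter, variance settings, array weights, probe set means, log2 of age and left-out arrays. The number of arrays limits the precision.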

Additional observations from a re-analysis of the deposited data

How the results depend on the processing

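Tnc and Hapln1 were the genes that passed the trend in every alternative fit, except that Tnc did not without either 4-week array. The number of the 10 genes past the trend was 2, and 4 with trended and robust variances, which added Bcan and Ncan; leaving out 1 array gave 1 to 2. For 12 against 4 weeks it was 2 and ranged from 0 to 2 with 1 array left out, and for the F-test 2, with 0 to 2. The F-test gave 0 with the replicate block and 1 without the 2 arrays that stood apart, a setting chosen after seeing the data. Whether the replicate numbers pair the arrays is not known. Deviations of same-numbered arrays correlated at −0.34 to 0.16 (median 0.03, 3 of 10 age pairs over 0.1), which cannot exclude a shared batch. With the replicate block 2 genes passed the trend, 2 passed 12 against 4 weeks and 6 pairs differed. Pairs that differed numbered 5 to 7 with 1 array left out. Hapln2 minus Bcan passed by exact permutation with quantile normalization (0.38, adjusted p = 0.047), on log2 of age (0.43, 0.029) and without 8 weeks replicate 1 (0.40, 0.047) or replicate 2 (0.40, 0.040).

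Directions turned only where values lay near 0 and no call was made. Leaving out 1 array moved the trend of Hapln3 between −0.05 and 0.03, its value without both 12-week arrays was 0.04, and 12 against 4 weeks for Hapln2 ran from −0.00 to 0.25. The lectican differences ran from −0.02 to 0.11 (Vcan minus Bcan), −0.07 to 0.03 (Vcan minus Acan, 0.00 with quantile normalization), −0.04 to 0.12 (Vcan minus Ncan), −0.11 to 0.05 (Bcan minus Acan), −0.03 to 0.03 (Bcan minus Ncan) and −0.02 to 0.09 (Acan minus Ncan). Counts over all genes moved more: 162 passed the trend, 35 to 279 with 1 array left out and 363 with trended and robust variances. Recentring moved the median change of all genes by at most 0.02.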
